A study of Mus musculus with 6 samples.

Results

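The T cell receptor complex and the CD4 coreceptor were followed through 8 genes in mouse Th17 cultures labelled as wild type or as knockout for pyruvate dehydrogenase (PDH). The genes were taken by name: Trac, Trbc1 and Trbc2 for the constant parts of the receptor's alpha and beta chains, Cd3g, Cd3d, Cd3e and Cd247 for the signalling chains, and Cd4. All 8 had a row among the 15452 deposited, and all 8 were among the 15361 genes tested. The series holds 6 mRNA libraries from Th17 cells, CD4+ helper T cells known for making interleukin 17. Naive CD4+ cells from spleen and lymph nodes of mice were grown for 3 days on bound anti-CD3 (5 µg/mL) with anti-CD28 (1 µg/mL), IL-6 (30 ng/mL), TGFβ (2 ng/mL) and anti-IFNγ (5 µg/mL), in both groups alike. The 3 control libraries, labelled WT, came from PDH fl/fl mice without Cre, and the 3 knockout libraries from PDH fl/fl CD4 Cre+ mice. CD4 Cre is a Cre transgene under Cd4 control, which acts from thymic development onward and only in cells that have used that control region. All knockout mice carried Cre and no control mouse did, so an effect of Cre and one of the deletion cannot be told apart. The sample titles write the floxed locus as PHD where the growth protocol has PDH. The labels used here give no strain or age and no link from replicate to animal, and p-values measure the spread between these libraries, which may be technical.

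The alpha and beta chains of the receptor recognise peptide held by MHC molecules but have almost no cytoplasmic part. Signalling is carried by the CD3 gamma, delta and epsilon chains and by the zeta chain, the product of Cd247. CD3 gamma and CD3 delta each pair with CD3 epsilon, and the zeta chain forms a pair with itself. Assembly takes place in the endoplasmic reticulum, and incompletely assembled receptors are mostly retained or degraded. CD4 binds MHC class II and brings the kinase LCK to the receptor.

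Cd3g, Cd3d and Cd3e follow each other directly on mouse chromosome 9, and their promoters are shown because Cd3g and Cd3d fell in the knockout while their neighbour Cd3e was not called. The sequences are the 250 bases before each RefSeq start site in GRCm38.p6: chr9:44980432-44980681 on the minus strand, chr9:44981536-44981785 on the plus strand and chr9:45009612-45009861 on the minus strand. Capitals mark matches, on either strand, to short motifs of factor families that work in T cells and to the TATA box, and no matches overlapped.
Cd3g: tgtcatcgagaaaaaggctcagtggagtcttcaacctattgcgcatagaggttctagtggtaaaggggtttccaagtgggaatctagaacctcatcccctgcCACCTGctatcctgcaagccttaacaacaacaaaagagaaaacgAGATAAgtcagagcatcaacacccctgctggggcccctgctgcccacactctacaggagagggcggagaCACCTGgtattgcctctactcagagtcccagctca
Cd3d: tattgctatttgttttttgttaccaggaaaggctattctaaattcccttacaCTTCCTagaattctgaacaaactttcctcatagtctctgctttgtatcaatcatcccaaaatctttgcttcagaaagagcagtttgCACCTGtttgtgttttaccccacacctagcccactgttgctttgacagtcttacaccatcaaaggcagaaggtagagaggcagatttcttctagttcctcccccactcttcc
Cd3e: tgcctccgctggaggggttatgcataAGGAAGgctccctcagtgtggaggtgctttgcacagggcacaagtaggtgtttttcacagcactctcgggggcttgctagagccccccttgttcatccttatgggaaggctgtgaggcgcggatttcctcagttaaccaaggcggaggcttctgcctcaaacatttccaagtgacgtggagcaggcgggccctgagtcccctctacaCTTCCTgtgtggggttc
The Cd3g window held 2 E-box matches, starting 148 and 35 bases before the start site, and a GATA match at 104. The Cd3d window held an ETS match at 198 and an E-box match at 112, and the Cd3e window held ETS matches at 224 and 17. The Cd247 window on chromosome 1 (chr1:165788431-165788680, plus strand) held an ETS match at 57 and an E-box match at 10. The E-box letters searched were thus in the windows of Cd3g, Cd3d and Cd247, and the ETS letters in those of Cd3d, Cd3e and Cd247. Only these exact letters were searched, and a link between any motif and the changes in level was not tested. The E-box motif searched was CAGGTG, held by 17.2% of the 32851 RefSeq promoters of this length. The ETS motif was AGGAAG, held by 29.5% of those promoters. The GATA motif was AGATAA, held by 9.99%. The RUNX motif was TGTGGT, in 14.0% of promoters and in none of these windows. The TATA box was searched as TATAAA, in 12.4% of promoters and in none of these windows. These matches describe letters and not bound sites. The promoter table had entries for 4 of the 8 genes.

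Trbc1 and Trbc2 are shown as a stretch of coding sequence because their likeness bears on how reads were divided between them. The lines give the last 60 of the 518 coding bases of each constant gene in GENCODE M21, with the bases that differ in capitals.
Trbc1: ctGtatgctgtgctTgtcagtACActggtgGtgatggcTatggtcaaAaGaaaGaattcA
Trbc2: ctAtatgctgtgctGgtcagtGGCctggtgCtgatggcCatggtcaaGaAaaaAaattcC
Of the 23 differences over the whole coding part, 11 lay in this stretch, and the coding parts were 95.6% identical. The longest identical run was 259 bases, and 321 of the 488 windows of 31 bases in Trbc1 were also in Trbc2. These values are for the longer Trbc1 coding part. Another annotated Trbc1 transcript, with 512 coding bases, had 30 differences from Trbc2, gaps included, and was 94.2% identical. The division of counts between this pair is therefore uncertain, and their sum is given as well.

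Levels are CPM (a gene's count scaled by library size with TMM factors), and changes are log2 fold changes of knockout over WT ± SE from edgeR's quasi-likelihood test, with p-values adjusted by Benjamini-Hochberg over all tested genes and called below 0.05. Total counts per library ran from 33802154 to 40407124. The labels do not name the floxed subunit gene or the exons removed. Pdha1, which encodes the E1 alpha subunit of PDH, was at 256, 236 and 251 CPM in WT replicates, against 198, 193 and 186 CPM in knockout replicates (edgeR adjusted p = 0.000871), but a gene-level count that includes exons outside a deletion does not test the labels. Each of the 8 genes held at least 3463 counts in every library. Of the 8 genes, 5 fell, none rose and 3 stayed uncalled. Over all tested genes, 47.6% were called, 24.5% as lower and 23.1% as higher. The genes that fell were Cd3g, Trac, Cd3d, Cd247 and Cd4, and those not called were Cd3e, Trbc1 and Trbc2. Knockout replicate 2 stood apart from the other knockout libraries (chi-square per degree of freedom of 154 and 143, against 30.1 between those), and without it the same 5 genes were called, with log2 fold changes from -0.96 to -0.52. The median log2 fold change of the 8 was -0.55, beside 0.01 over all tested genes. Under upper-quartile scaling the share of all called genes that were higher was 59.95% instead of 48.53%, and the same 5 of the 8 genes were called lower.

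**Figure D1:**
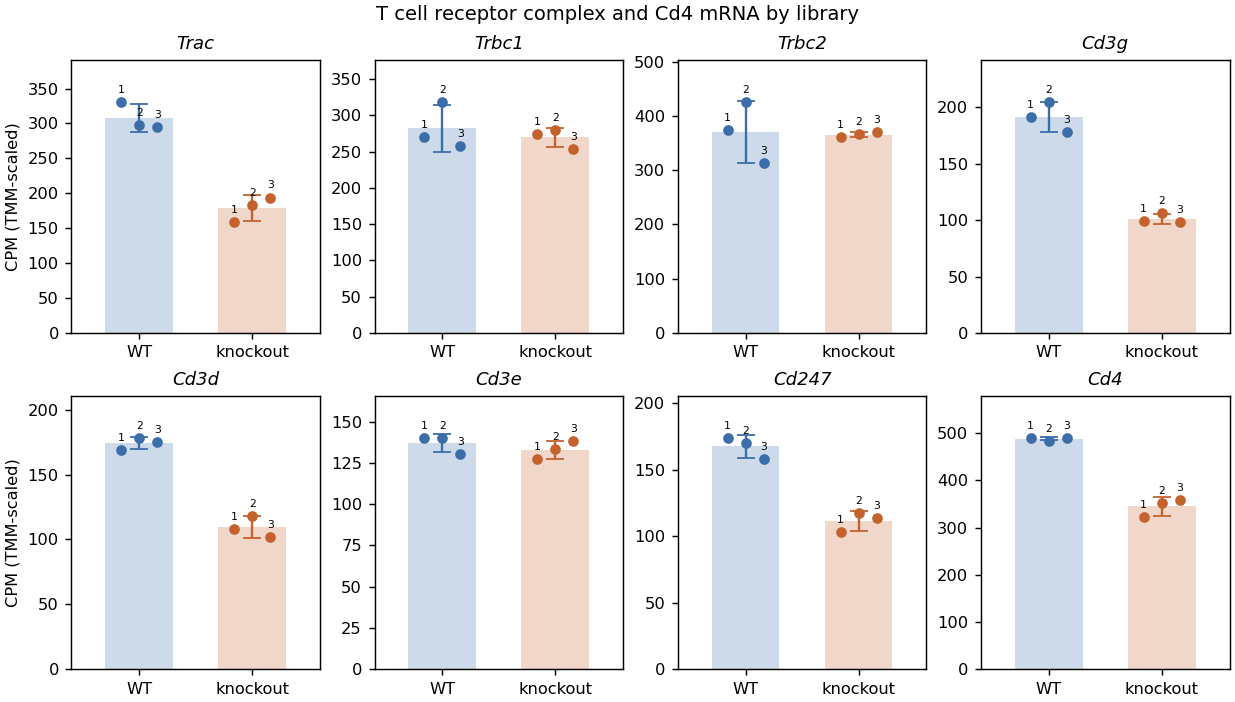
Level of each of the 8 genes in CPM (TMM-scaled, axes from 0), with a point per library numbered by replicate, bars at the mean of 3 libraries and error bars of 1 SD. The knockout points lie below all WT points for Trac, Cd3g, Cd3d, Cd247 and Cd4 and overlap with them for Trbc1, Trbc2 and Cd3e.

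Among the signalling chains, Cd3g (ENSMUSG00000002033.15), which encodes CD3 gamma, changed most. Its levels were 191, 205 and 178 CPM in WT replicates 1 to 3 and 99.3, 106 and 98.1 CPM in knockout replicates 1 to 3. The groups were far apart, with every knockout library well under the lowest WT library. The mean went from 192 ± 13.5 to 101 ± 4.34 CPM (SD, n = 3 each), 52.8% of the WT level. The log2 fold change was -0.92 ± 0.07 (edgeR adjusted p = 1.93e-05), and 3.81% of all tested genes had a more negative one.

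Cd3d (ENSMUSG00000032094.9), which encodes CD3 delta, stood at 169, 179 and 175 CPM in WT replicates, against 108, 118 and 102 CPM in knockout replicates. Again no knockout library reached the WT range. The mean fell from 174 ± 4.64 to 109 ± 8.32 CPM, 62.7% of WT, a log2 fold change of -0.67 ± 0.07 (edgeR adjusted p = 6.87e-05).

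Cd3e (ENSMUSG00000032093.8), which encodes CD3 epsilon, the partner of both other CD3 chains, behaved differently. Its WT libraries held 140, 140 and 131 CPM and its knockout libraries 127, 133 and 138 CPM. The ranges overlapped, and the mean of 133 ± 5.55 CPM in knockout was 97.0% of the 137 ± 5.61 CPM in WT. The log2 fold change was -0.04 ± 0.06 (edgeR adjusted p = 0.568), with a 95% interval from -0.18 to 0.09. That interval does not reach the changes fitted for Cd3g, Cd3d, Cd247 or Cd4. Its sign depended on the scaling, with a log2 fold change of 0.035 under upper-quartile factors.

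Cd247 (ENSMUSG00000005763.16), which encodes the zeta chain, was at 174, 170 and 158 CPM in WT and at 103, 117 and 114 CPM in knockout. The lowest WT library stood above the highest knockout library. The mean fell from 168 ± 8.34 to 111 ± 7.36 CPM, 66.5% of WT, and the log2 fold change was -0.59 ± 0.07 (edgeR adjusted p = 0.000152). In GENCODE M21 the Cd247 locus overlaps Pou2f1 on the opposite strand by 12124 bases, introns included. The Cd3e locus also overlaps other entries, Gm48719 on the opposite strand by 3557 bases and Gm48720 on the same strand by 1206 bases. Gm48719 had no row, and Gm48720 had a mean of 0.362 CPM. Pou2f1 had a mean of 62.6 CPM, and whether the counts used strand is not given in the sources used here, though the library kit was a stranded one.

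**Figure D2:**
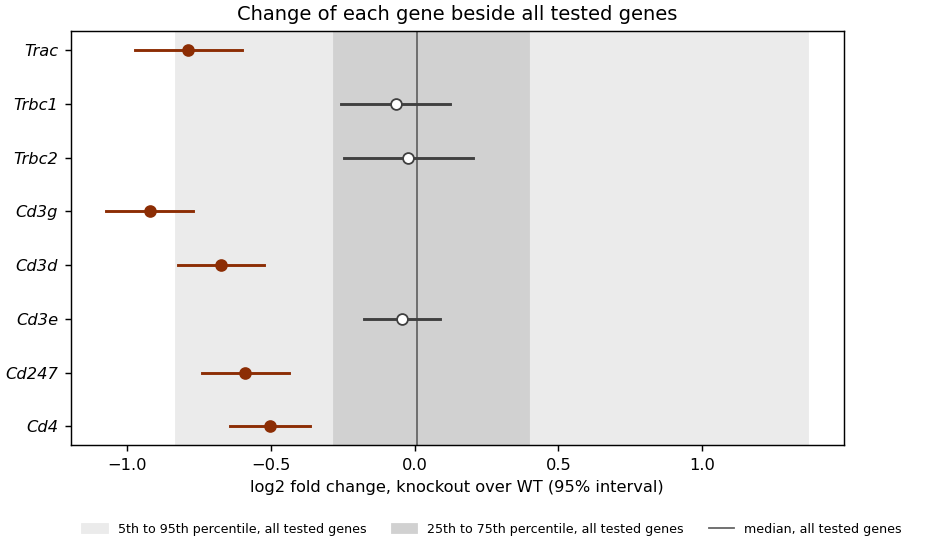
Log2 fold change of knockout over WT for the 8 genes with 95% intervals, filled where called by edgeR and open where not, over bands from the 25th to the 75th and from the 5th to the 95th percentile of all tested genes. Cd3g lies outside the wider band, whose lower edge is at -0.83, while Trbc1, Trbc2 and Cd3e lie near the median of 0.01.

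The receptor chains themselves split in the same manner. Trac (ENSMUSG00000076928.6), the alpha chain constant gene on chromosome 14, held 331, 298 and 295 CPM in WT and 158, 184 and 194 CPM in knockout. All knockout libraries lay more than 100 CPM below the lowest WT library. The mean fell from 308 ± 20.2 to 179 ± 18.3 CPM, 58.0% of WT, with a log2 fold change of -0.79 ± 0.08 (edgeR adjusted p = 0.000101).

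The beta chain constant genes on chromosome 6 were not called. Trbc1 (ENSMUSG00000076490.7) was at 270, 319 and 258 CPM in WT and 274, 280 and 254 CPM in knockout. Trbc2 (ENSMUSG00000076498.3) was at 374, 427 and 313 CPM in WT and 361, 367 and 370 CPM in knockout. For each gene the groups overlapped, WT replicate 2 was the highest of the 6 libraries, and WT replicate 3 was below most of the knockout libraries. The log2 fold changes were -0.07 ± 0.08 for Trbc1 and -0.02 ± 0.10 for Trbc2 (edgeR adjusted p = 0.542 and 0.876). Summed into 1 entry, the beta constant genes averaged 653 ± 87.8 CPM over WT libraries and 635 ± 11.3 CPM over knockout libraries. That sum had a log2 fold change of -0.04 ± 0.09 and a 95% interval from -0.25 to 0.16 (edgeR adjusted p = 0.737). Without WT replicate 2 the log2 fold changes were 0.03 for Trbc1 and 0.09 for Trbc2, still not called (edgeR adjusted p = 0.744 and 0.402).

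The share of the joint beta count assigned to Trbc1 was 41.9, 42.8 and 45.2% in the WT libraries and 43.2, 43.3 and 40.7% in the knockout libraries. The exact 95% binomial interval, which covers counting error only, was 41.3 to 42.5% in WT replicate 1 and 44.5 to 45.8% in WT replicate 3, so libraries within a group differed by more than counting error. The group means of 43.3 ± 1.70% and 42.4 ± 1.45% differed by less than the spread within a group.

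The variable segments, the parts of the receptor that differ from cell to cell, had rows of their own. Each deposited row reached 10 counts in 3 or more libraries, so a segment could enter through the group in which it was higher, and the sums and counts of these rows are a description only. Rows named Trav, the alpha variable segments, summed to 102, 98.6 and 98.0 CPM in WT and 48.6, 52.8 and 53.2 CPM in knockout, a knockout mean of 51.8% of WT over the rows deposited. Rows named Trbv, the beta variable segments, summed to 179, 206 and 171 CPM in WT and 163, 170 and 147 CPM in knockout, 86.4% of WT. In both sums the knockout libraries were all below the WT libraries, but for Trbv the highest of them, at 169.6 CPM, was close to the lowest WT library, at 170.9 CPM. Of the 72 Trav rows tested, 49 fell, none rose and 23 were not called. Of 22 Trbv rows 6 fell, none rose and 16 were not called. Among all tested genes 24.5% fell and 23.1% rose, so the share of Trbv rows that fell was near that of all genes. Related segments share sequence, so counts of single rows are uncertain.

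**Figure D3:**
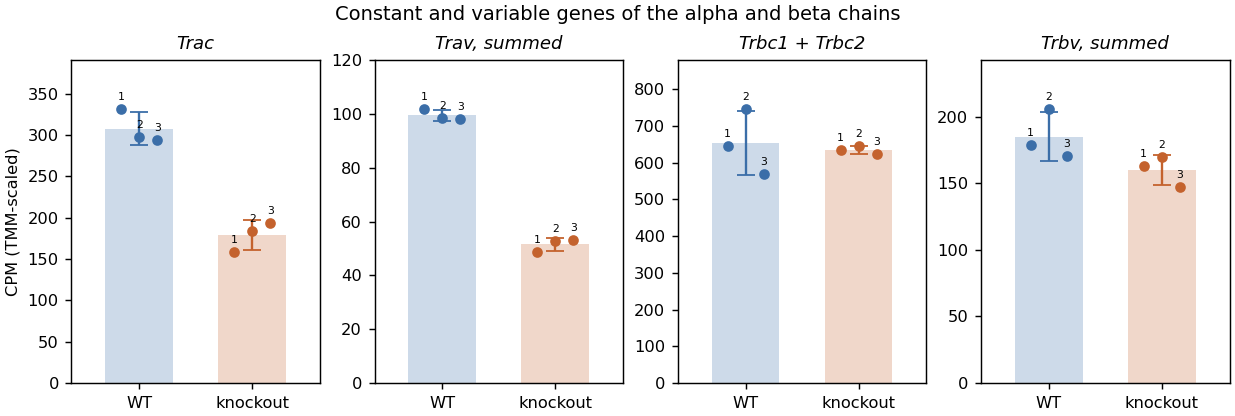
CPM (TMM-scaled, axes from 0) of Trac, the summed Trav rows, Trbc1 plus Trbc2, and the summed Trbv rows, with a point per library numbered by replicate, bars at the mean of 3 libraries and error bars of 1 SD. Trac is at 58.0% and the sum of the Trav rows deposited at 51.8% of WT in knockout, while the joint beta constant level overlaps between groups.

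Ratios of counts within a library do not depend on how libraries are scaled. The ratio of Trac to the joint Trbc1 and Trbc2 count was 0.514, 0.40 and 0.516 in WT and 0.249, 0.284 and 0.311 in knockout. Although WT replicate 2 had the lowest WT ratio, it still exceeded all knockout ratios.

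Within the CD3 group, the ratio of Cd3g to Cd3e was 1.36, 1.46 and 1.36 in WT and 0.780, 0.797 and 0.709 in knockout. Cd3g thus had more counts than Cd3e in every WT library and fewer in every knockout library. The same crossing held for Cd3d, whose ratio to Cd3e went from 1.27 ± 0.0677 to 0.825 ± 0.0785, and for Cd247, from 1.22 ± 0.0163 to 0.838 ± 0.0372. These ratios are not corrected for transcript length, so the value of 1 has no meaning in molecules.

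Ratios among the genes that fell were mixed. Cd247 to Cd3d was 0.961 ± 0.0632 in WT and 1.02 ± 0.0844 in knockout, with overlapping groups. Trac to Cd3g was 1.61 ± 0.143 and 1.77 ± 0.193, also overlapping. Cd3g to Cd3d, the divergent neighbours on chromosome 9, went from 1.10 ± 0.0721 to 0.926 ± 0.0333 without overlap. Cd4 to Cd3d went from 2.80 ± 0.0897 to 3.16 ± 0.312, also without overlap. The joint beta count over Cd3e, both of them not called, was 4.76 ± 0.493 and 4.79 ± 0.247, again overlapping.

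**Figure D4:**
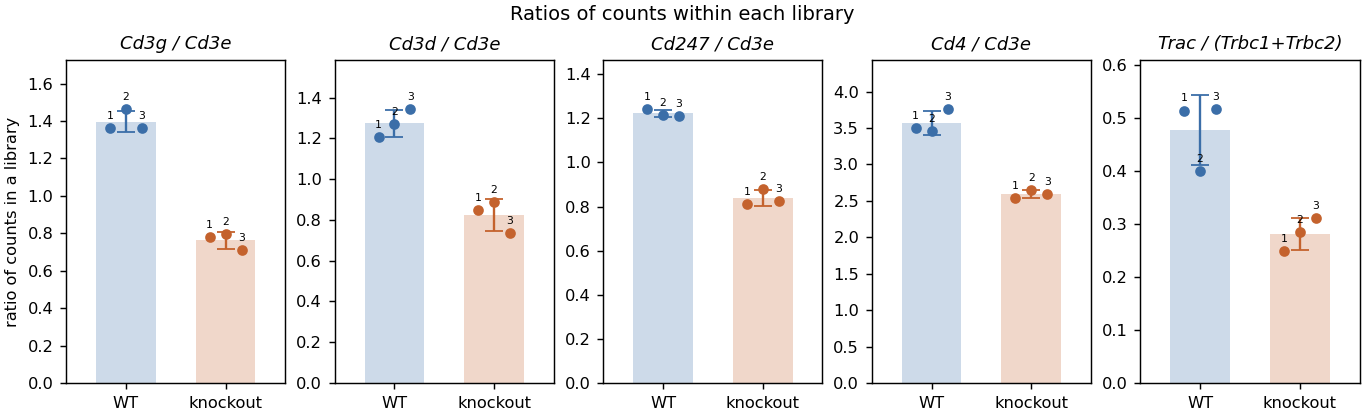
Ratios of counts within each library (unitless, axes from 0), with a point per library numbered by replicate, bars at the mean of 3 libraries and error bars of 1 SD. In each of the 5 panels all knockout ratios lie below all WT ratios, as in Cd4 over Cd3e, which went from 3.57 ± 0.164 to 2.59 ± 0.0546.

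Cd4 (ENSMUSG00000023274.15), the coreceptor gene that marks these cells, was at 490, 484 and 490 CPM in WT and at 323, 352 and 359 CPM in knockout. The WT libraries were nearly equal, and all knockout libraries were lower by over 100 CPM. The mean fell from 488 ± 3.33 to 345 ± 19.4 CPM, 70.6% of WT, with a log2 fold change of -0.50 ± 0.06 (edgeR adjusted p = 0.000218). Of all tested genes, 12.5% had a more negative one. In mRNA from whole cultures, fewer cells of a type and less RNA per cell cannot be told apart, and this holds for each of the genes described.

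In all, the 5 genes that fell had groups without overlap, and 29.4% of all tested genes were lower without overlap, 28.8% higher and 58.2% either. Their calls were kept in each of 19 alternative settings, with log2 fold changes from -0.97 to -0.84 for Cd3g, -0.98 to -0.71 for Trac, -0.74 to -0.59 for Cd3d, -0.68 to -0.51 for Cd247 and -0.60 to -0.42 for Cd4. Those 19 settings included a test against a fold change of 1.2 instead of against no change.

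To compare levels between genes, CPM were divided by the length in kb of the longest annotated coding or constant transcript in GENCODE M21. In WT the order of these levels per length was Trbc2 (537 ± 82.3), Trbc1 (383 ± 43.9), Trac (329 ± 21.6), Cd3g (187 ± 13.2), Cd4 (157 ± 1.07), Cd3d (108 ± 2.87), Cd3e (93.7 ± 3.83) and Cd247 (56.65 ± 2.82), in CPM per kb. Among neighbours in this order, the ranges over WT libraries overlapped between Trbc1 and Trac alone. In knockout, Cd4 (111 ± 6.25) passed Cd3g (98.9 ± 4.24) and Cd3e (90.9 ± 3.80) passed Cd3d (67.7 ± 5.15). Trac (191 ± 19.6) kept its place but no longer overlapped Trbc1 (366 ± 18.3). The annotation release behind the counts was a different one, and Cd247 has 6 coding transcripts of unequal length, so the order rests on the lengths chosen.

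The labelled cell type was checked against markers. All 8 Th17 markers had rows, and their summed level by library totals ran from 1001 to 1302 CPM in WT and from 674 to 841 CPM in knockout. The 10 B cell markers summed to 57.1 to 136 CPM in WT and 68.1 to 251 CPM in knockout, highest in WT replicate 2 and knockout replicates 2 and 3. Ighm, the IgM heavy chain gene, made up 51.5 to 101 CPM of that sum in WT and 61.7 to 134 CPM in knockout. With the 3 libraries of highest B cell marker sum left out, which leaves 1 knockout library that is assumed to vary like the WT pair, the log2 fold changes were -0.89 for Cd3g, -0.98 for Trac, -0.67 for Cd3d, -0.68 for Cd247 and -0.60 for Cd4, all called by edgeR. There Cd3e was at -0.09, Trbc1 at 0.06 and Trbc2 at 0.07, none called. Myeloid markers, 5 of 8 with rows, summed to 6.71 to 19.2 CPM in WT and to 2.24 to 5.30 CPM in knockout. This sum was lower in all knockout libraries and highest in WT replicate 1, but Itgam, Csf1r and Fcgr3 on their own overlapped between groups. Gamma delta T cell markers, 2 of 4 with rows, summed to 1.88 to 2.74 CPM in WT and to 3.75 to 5.27 CPM in knockout, so all knockout libraries were higher. Of 6 NK markers Eomes alone had a row, at 3.68 to 5.33 CPM in WT and 2.44 to 5.18 CPM in knockout, and none of 4 erythroid markers had one.

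Of 8 genes for chains of other receptors and coreceptors, 4 had rows, while Trgc1, Trgc2, Trgc4 and Ptcra had none. Trdc, the constant gene of the delta chain of gamma delta T cells, whose locus lies within that of the alpha chain, rose from 2.02 ± 0.380 to 3.62 ± 0.413 CPM (0.84 ± 0.19, edgeR adjusted p = 0.00611). The call was lost with the 3 libraries rich in B cell transcripts left out (0.81, edgeR adjusted p = 0.0591). Cd8b1, a CD8 coreceptor chain, fell from 7.94 ± 0.349 to 5.16 ± 1.07 CPM (-0.62 ± 0.16, edgeR adjusted p = 0.00951). Cd8a, its partner, had 1.22, 3.58 and 1.16 CPM in WT replicates, against 1.07, 8.64 and 3.08 CPM in knockout replicates by library totals, and was not called. Cd8a was named after its values were seen. CD8 T cell markers summed to 8.68 to 11.3 CPM in WT and 5.58 to 14.9 CPM in knockout. The part of myeloid, gamma delta and CD8 T cells in the results on the 8 genes was not tested.

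The genes that carry the signal from the receptor were mostly lower as well. Of 20 proximal kinase and adaptor genes, 13 fell, 1 rose and 6 were not called, and the median log2 fold change was -0.28. The share that fell was 65.0%, while among all tested genes 24.5% fell and 23.1% rose. Zap70, the kinase that docks on phosphorylated CD3 and zeta chains, fell from 182 ± 11.7 to 136 ± 5.71 CPM (-0.42 ± 0.07), and Lat, the scaffold that ZAP-70 phosphorylates, from 343 ± 42.4 to 239 ± 15.9 CPM (-0.52 ± 0.09). Skap1, an adaptor for adhesion, fell by 0.54 on the log2 scale. Lck, the kinase bound by CD4, fell by 0.29. Trat1, an adaptor that binds the receptor complex, was the gene that rose (0.45), and Lcp2, the adaptor SLP-76, was at 0.01 and not called. Lck, Trat1 and Lcp2 were named after their values were seen. Tested against a fold change of 1.2, 5 of these genes were lower and 1 higher, beside 1856 lower and 2125 higher of all 15361 tested.

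Genes that restrain or remove the receptor were lower in like number. Of 20, 13 fell, 1 rose and 6 missed the threshold, around a median of -0.33 on the log2 scale. Here too 65.0% fell, beside 24.5% lower and 23.1% higher among all tested genes. Sit1, a transmembrane adaptor that dampens signalling, fell from 14.4 ± 1.24 to 7.89 ± 0.753 CPM (-0.87 ± 0.11). Sla2, an adaptor of the SLAP family, whose members promote turnover of the receptor, fell from 18.9 ± 1.43 to 11.8 ± 0.361 CPM (-0.68 ± 0.09), and Ubash3b and Dok2 fell by 0.58 and 0.56 on the log2 scale. Named after their values were seen, Sla and Cblb, a SLAP adaptor and a ubiquitin ligase of the same turnover pathway, fell, with log2 fold changes of -1.39 and -1.4027 (edgeR adjusted p = 0.000507 and 0.00389). Pag1, an adaptor that recruits the kinase CSK, was the gene that rose (0.45) and was also named after its values were seen. Tested against a fold change of 1.2, 6 were lower and 1 higher, beside 1856 lower and 2125 higher of all 15361 tested.

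Among 17 transcription factors known for work at the receptor or Cd4 loci in T cell development, 7 fell, 3 rose and 7 missed the threshold. The median was -0.08 on the log2 scale, and 41.2% fell, beside 24.5% lower and 23.1% higher among all tested genes. The balance of this list turned with upper-quartile scaling, where 6 were higher and 5 lower. A filter of 50 counts narrowed it without turning it, at 5 higher and 6 lower. Ets1, an ETS factor abundant in lymphocytes, fell from 692 ± 24.011 to 413 ± 11.8 CPM (-0.74 ± 0.06, edgeR adjusted p = 2.75e-05). Runx3, which silences Cd4 in the CD8 lineage, fell from 94.6 ± 5.26 to 62.1 ± 3.55 CPM (-0.61 ± 0.07), and Tcf3, which encodes the E-box factors of the E2A type, from 150 ± 13.2 to 98.2 ± 6.47 CPM (-0.61 ± 0.08). Bcl11b, a factor of T cell commitment, rose from 147 ± 3.64 to 226 ± 12.1 CPM (0.62 ± 0.06). Tested against a fold change of 1.2, 5 were lower and 1 higher, beside 1856 lower and 2125 higher of all 15361 tested.

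Other T cell surface glycoproteins were also mixed. Of 13 genes, 7 fell, 3 rose and 3 missed the threshold, around a median of -0.39 on the log2 scale. The share that fell was 53.8%, beside 24.5% lower and 23.1% higher among all tested genes. Cd2, an adhesion receptor of T cells, fell from 467 ± 35.9 to 146 ± 7.83 CPM (-1.67 ± 0.07, edgeR adjusted p = 1.8e-06), a steeper change than that of any of the 8 receptor genes. Thy1, a glycolipid-anchored T cell antigen, fell from 576 ± 17.9 to 318 ± 8.51 CPM (-0.85 ± 0.06), and Selplg, the selectin ligand PSGL-1, by 0.67. Itgal, the alpha chain of the integrin LFA-1, rose from 534 ± 16.5 to 841 ± 48.8 CPM (0.66 ± 0.07).

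**Figure D5:**
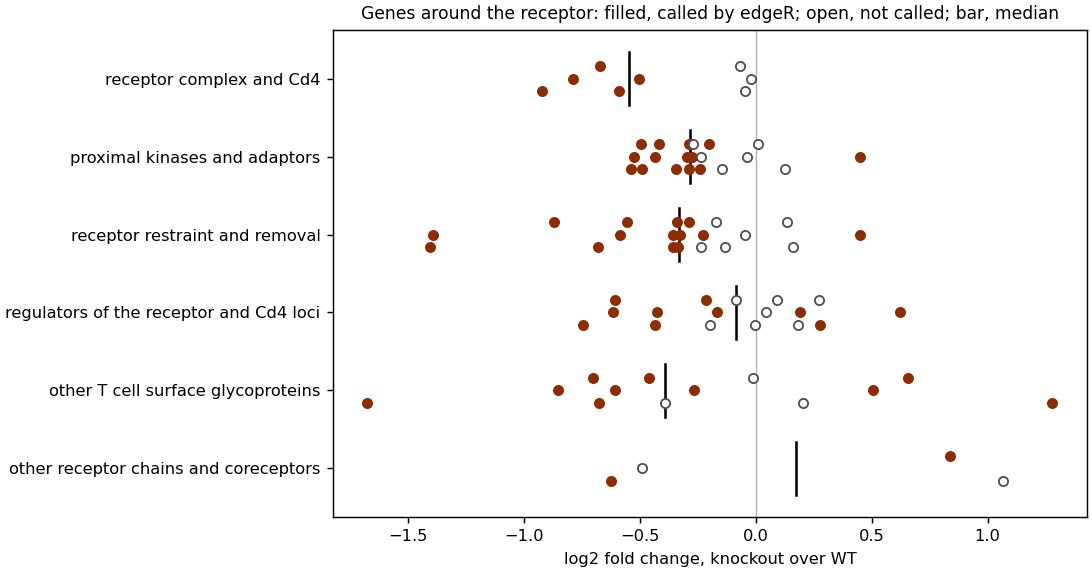
Log2 fold change of knockout over WT for each tested gene of the 8 receptor complex and Cd4 genes and the 5 other lists, filled where called by edgeR and open where not, with a bar at each list's median. The receptor complex and Cd4 genes fall into 5 between -0.92 and -0.50 and 3 near 0, and the other lists hold genes on both sides of 0.

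Genes with profiles like Cd4 and like Cd3e over the 6 libraries were found among the 12060 genes whose mean reached 50 normalized counts. Likeness was the root mean square difference in log2 CPM after each profile was centred on its own mean. Nearest to Cd4 were Sirt3, a mitochondrial deacetylase (difference 0.025), Itgb2, the beta chain of LFA-1 (0.028), and Ankrd13b (0.032). Itgb2 was at 321, 310 and 314 CPM in WT and 198, 226 and 230 CPM in knockout. Its fall, like that of Sirt3 and Ankrd13b, comes with choosing these genes for likeness to Cd4. Nearest to Cd3e were Lig3, a DNA ligase (0.018), Rbms1 (0.022) and Fundc1, a mitochondrial outer membrane protein gene (0.023). None of these was called, which comes with choosing them for likeness to Cd3e. Lig3 was at 76.6, 76.7 and 70.4 CPM in WT and 71.4, 72.6 and 75.004 CPM in knockout. Its overlap between groups comes with the same choice.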

How the data were processed

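Libraries made with a stranded mRNA kit, 3 WT and 3 knockout, were grouped by sample titles. The deposited values are expected counts, estimated by the authors per gene in whole numbers. Salmon, DESeq2 and DESeq are listed, with no role or version, in the submitters' processing notes. The build and annotation release were not given in the sources used here. Each row reached 10 counts in 3 or more libraries. IDs without version were matched to GENCODE M21 (15138 matched, 314 not, 18 with the same version).

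edgeR 4.0.16 (limma 3.58.1, R 4.3.3) was used with filterByExpr (91 genes removed), TMM scaling, and a robust quasi-likelihood F test with genotype as the only term. The SE is the log2 fold change over the square root of F. The script was tested on simulated data. Alternatives were other scalings, DESeq2 1.42.0, limma-voom, filters, a replicate block, a test against 1.2-fold and libraries or entries left out. Sequences came from RefSeq (GRCm38.p6) and GENCODE M21, and figures from matplotlib 3.10.9.

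The 8 genes and the lists were chosen with earlier results of these data known. Named genes are the 8, up to 4 called genes of each other list with the smallest p, and the 3 nearest in profile to Cd4 and to Cd3e. A gene named by this rule and some marker genes are not reported here. The smallest library held 33802154 counts, and no replicates were alike enough to be the same library (chi-square per degree of freedom at least 24.05).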

Additional observations from a re-analysis of the deposited data

How the results depend on the processing

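The calls of Cd3g, Trac, Cd3d, Cd247 and Cd4 held in all 19 alternatives, and Cd3e, Trbc1 and Trbc2 were called in none. The cause of the changes below was not tested, except that a 1.2-fold test asks for more by construction. The log2 fold changes of these last 3 changed sign in some: with upper-quartile scaling Cd3e was at 0.035, Trbc1 at 0.014 and Trbc2 at 0.060, with library totals Cd3e was at 0.00048 and Trbc2 at 0.0245, and with a filter of 50 counts Cd3e was at 0.0011 and Trbc2 at 0.0244. With each library left out in turn, Trbc1 ran from -0.13 to 0.030 and Trbc2 from -0.13 to 0.089, positive only without WT replicate 2. With the 3 libraries with raised B cell markers left out, Trbc1 was at 0.059 and Trbc2 at 0.072, and 1 of the other receptor chain and coreceptor genes was called. Against a fold change of 1.2, 3981 genes were called in place of 7311, as were 6 kinase and adaptor, 7 restraint and 6 transcription factor genes. The Trbc1 share differed between groups by -0.87 percentage points, from -1.56 to 0.08 with libraries left out. With the replicate number as a block, 7218 genes were called and no call among the 8 genes changed (Cd4 at -0.50, Cd3g at -0.92). Deviations from the group means of same-numbered libraries had correlations of -0.10, 0.09 and -0.26 over all genes. Those of differently numbered libraries ran from -0.18 to 0.27. With 3 libraries per group these values cannot decide whether the number marks a shared animal or day. The 8 genes held at least 3463 counts in every library.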
